A study of Mus musculus with 17 samples.

Results

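RNA was sequenced from mouse spermatogonial, pluripotent, blood and fibroblast cells, and the long noncoding transcripts that these cells expressed are described here. The members were chosen by their RefSeq identifier (the NR_ series, given to noncoding RNAs), a length of at least 1000 bases, a symbol with no protein-coding transcript in the files, an autosomal locus, and a mean of at least 5 FPKM (fragments per kilobase of transcript, scaled to the mapped fragments of the library) in at least 1 of 6 cell types. Of 4265 NR_ transcripts, 2137 were long enough and 1606 of these shared no symbol with a coding transcript. After the sex chromosomes and the imprinted genes H19, Meg3, Rian and Mirg were left out, 1366 genes remained, and 195 of them reached the level. Each gene was represented by 1 of its NR_ transcripts of at least 1000 bases, the one with the highest mean over the 17 samples. The choice itself thus rested on measured levels, and a shorter transcript of the same gene could be at a higher level.

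The 17 samples comprised 4 lines of spermatogonial stem and progenitor cells (SSC), 6 lines of multipotent adult spermatogonial-derived stem cells (MASC), 2 embryonic stem cell (ESC) lines, 2 induced pluripotent stem (iPS) cell lines, 2 cultures of haematopoietic stem and progenitor cells (HSC) and 1 sample of mouse embryonic fibroblasts (MEF). The strain labels were Oct4-GFP for SSC.1, SSC.2, MASC.1, MASC.2 and ESC.1, 129mix for SSC.4, MASC.3, MASC.4, ESC.2, both iPS lines and the MEF sample, C57Bl/6J for SSC.3 and both HSC cultures, and Gt(ROSA26)Sor-lacZ for MASC.5 and MASC.6. MASC lines arose without added factors from SSC kept for long periods in culture and were picked by colony shape, and the lines were subcloned. The iPS lines came from fibroblasts carrying a doxycycline-inducible reprogramming cassette and H3.3B-HA, and the MEF sample also carried H3.3B-HA. HSC cultures were lineage-depleted bone marrow cells grown on human endothelial feeders, and the ESC-type cultures were grown with MEF. SSC were also expanded on MEF, and a step to remove residual feeder cells came before their collection. By the methods of the study, SSC came from adult mice more than 3 months of age, and the fibroblasts, also those behind the iPS lines, from embryos of day 13.5.

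Long noncoding RNAs are transcribed by the same polymerase as messenger RNAs but are not translated into a long protein. Some act in the nucleus as scaffolds, some are precursors from which small nucleolar RNAs (snoRNAs) or microRNAs are cut, and many have no known role. Pluripotent cells are known for a set of such RNAs that fall during differentiation, and the testis is known for broad transcription of noncoding loci.

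The label of the members held for part of them only. In the present RefSeq annotation, 106 members were listed as lncRNA, 70 as transcribed pseudogenes and 3 as pseudogenes, 12 are now listed as protein-coding, and 4 had no entry. A protein-coding locus overlapped 76 members, of which 42 lay on the opposite strand only. How far the libraries kept the strand of the RNA is not stated, so where exons are shared, reads of these members cannot be told apart from reads of the overlapping gene. For 10 pseudogene members the files placed the transcript on another chromosome than RefSeq does, over the exons of the coding gene from which it was copied. Gm6793, for example, is placed in Hnrnpa3 (mm9 chr2:75497347-75503813), and Gm10052 in Hnrnpa1 (chr15:103070863-103075015). Their values are values of that locus. Coordinates of transcripts here are those of mm9, and only promoters and mature microRNAs are given on GRCm38.p6.

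Sequences are shown first for D7Ertd143e, since this noncoding RNA contains the hairpins of a microRNA cluster of early embryonic cells and separated MASC from SSC lines in the comparison that follows. The listed transcript (mm9 chr7:3218785-3221016, plus strand) spanned 7 hairpins with 13 mature microRNAs in the RefSeq table (GRCm38.p6). The Mir292b hairpin among them lies on the minus strand, so miR-292b-3p and miR-292b-5p are antisense to this transcript. In 4 of the 13, the seed (bases 2 to 8 of the microRNA, which pair with a target and are in capitals) began with AAGUGC. For Mir292 only miR-292a-5p was listed, so any other mature form of that hairpin is not covered. The listed mature microRNAs with that core were:
mmu-miR-291a-3p: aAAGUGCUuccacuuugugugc
mmu-miR-294-3p: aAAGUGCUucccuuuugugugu
mmu-miR-295-3p: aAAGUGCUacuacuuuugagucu
mmu-miR-291b-3p: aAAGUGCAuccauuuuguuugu
The first 3 shared the seed AAGUGCU, and the last differed in its final seed base. Other members were hosts too. Mir22hg held the hairpin of miR-22, 2610203C20Rik that of miR-125b, and Mir17hg, over its listed transcript, that of miR-92a, with these mature forms and seeds:
mmu-miR-22-3p: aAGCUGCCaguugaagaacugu
mmu-miR-125b-5p: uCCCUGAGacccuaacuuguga
mmu-miR-92a-3p: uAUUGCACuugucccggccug
No seed was shared among these 3 or with the D7Ertd143e microRNAs. The data are of long RNA, so the level of a host says nothing of the mature microRNA.

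Promoters are shown for members that were near 0 in SSC lines and expressed in MASC lines, and run from 250 bases before to 50 bases after the start in RefSeq (GRCm38.p6), in the direction of the gene. A promoter was found for 88 of the 195 members. The E-box CACGTG, in capitals, stood in the promoters of 2410007B07Rik (chr3:75655682-75655981, minus strand) and D7Ertd143e (chr7:3218534-3218833, plus strand):
2410007B07Rik: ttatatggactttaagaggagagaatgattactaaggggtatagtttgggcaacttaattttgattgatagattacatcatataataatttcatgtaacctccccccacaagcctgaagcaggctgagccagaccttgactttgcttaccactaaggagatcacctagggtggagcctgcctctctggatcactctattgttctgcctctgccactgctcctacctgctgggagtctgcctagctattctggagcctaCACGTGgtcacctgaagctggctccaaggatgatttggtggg
D7Ertd143e: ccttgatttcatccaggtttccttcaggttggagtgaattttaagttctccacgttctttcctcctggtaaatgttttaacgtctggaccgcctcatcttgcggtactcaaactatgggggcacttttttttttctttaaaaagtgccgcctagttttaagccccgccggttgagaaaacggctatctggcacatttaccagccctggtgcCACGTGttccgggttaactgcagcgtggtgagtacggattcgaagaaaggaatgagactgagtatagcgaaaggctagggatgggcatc
Searched on both strands, CACGTG occurred in 7.15% of all 32851 promoters and in 6.52% of the 92 promoters of the members. The octamer ATTTGCAT, the letters bound by Oct4-type factors, was in 1.74% of all promoters and in 2.17% of those of the members, and in none of the 6 available promoters of the 10 members with the largest increase. CATTGT, a core of SOX sites, was in 12.57% and 7.61%, and also in none of those 6. The GC box GGGCGG was in 35.66% of all promoters and in 47.83% of those of the members, and TATAAA in 13.62% and 5.43%. Gm20362 (chr6:79031792-79032091, plus strand) carried both, on the opposite strand:
Gm20362: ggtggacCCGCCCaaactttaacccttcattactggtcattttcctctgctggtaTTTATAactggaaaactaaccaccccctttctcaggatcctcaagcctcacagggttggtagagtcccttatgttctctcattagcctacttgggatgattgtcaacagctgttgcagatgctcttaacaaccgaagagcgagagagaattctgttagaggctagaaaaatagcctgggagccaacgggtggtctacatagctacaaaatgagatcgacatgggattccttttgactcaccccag
None of these motifs overlapped another in the promoters shown, and a match describes the letters only.

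The cell types carried their markers. The pluripotency markers summed to 3224 to 6437 FPKM in MASC, ESC and iPS lines, to 27.1 to 164 in SSC lines and to 5.42 at most in HSC and MEF. Spermatogonial markers summed to 695 to 822 FPKM in SSC lines and 45.6 at most elsewhere, and blood markers to 1841 and 2233 FPKM in HSC cultures and 72.2 at most elsewhere. Endothelial markers summed to 68.76 and 71.96 FPKM in HSC and 21.3 at most elsewhere. Pecam1 at 42.3 and 19.2 FPKM and Vwf at 26.0 and 32.6 FPKM gave most of the sums in HSC.1 and HSC.2. In HSC.1 Cdh5, Kdr, Tek and Tie1 were at most 0.316 FPKM, and in HSC.2 Tie1 was at 14.1 FPKM. At 1 FPKM a sample had 1.26 to 3.23 reads per base, the lowest in an HSC culture. The confidence interval that the authors deposited had a median half-width of 9.51 to 13.4% of the value for members near 5 FPKM, which covers counting error only.

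Levels among the members spanned a wide range, with a median of 13.8 FPKM for the mean in the highest cell type, against 24.2 FPKM for the 10823 protein-coding genes that reached the same floor. The median was 10.5 FPKM for lncRNA members and 21.9 FPKM for pseudogene members. In each of the 6 cell types, 51 members (26.2%) reached 5 FPKM, compared with 48.1% of the coding genes. Conversely, 52 members (26.7%) reached it in 1 cell type alone, against 16.3% of the coding genes. Among lncRNA members the shares were 14.2% in all 6 and 36.8% in only 1. These shares follow from the floor that chose the members and are given as a description.

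**Figure D1:**
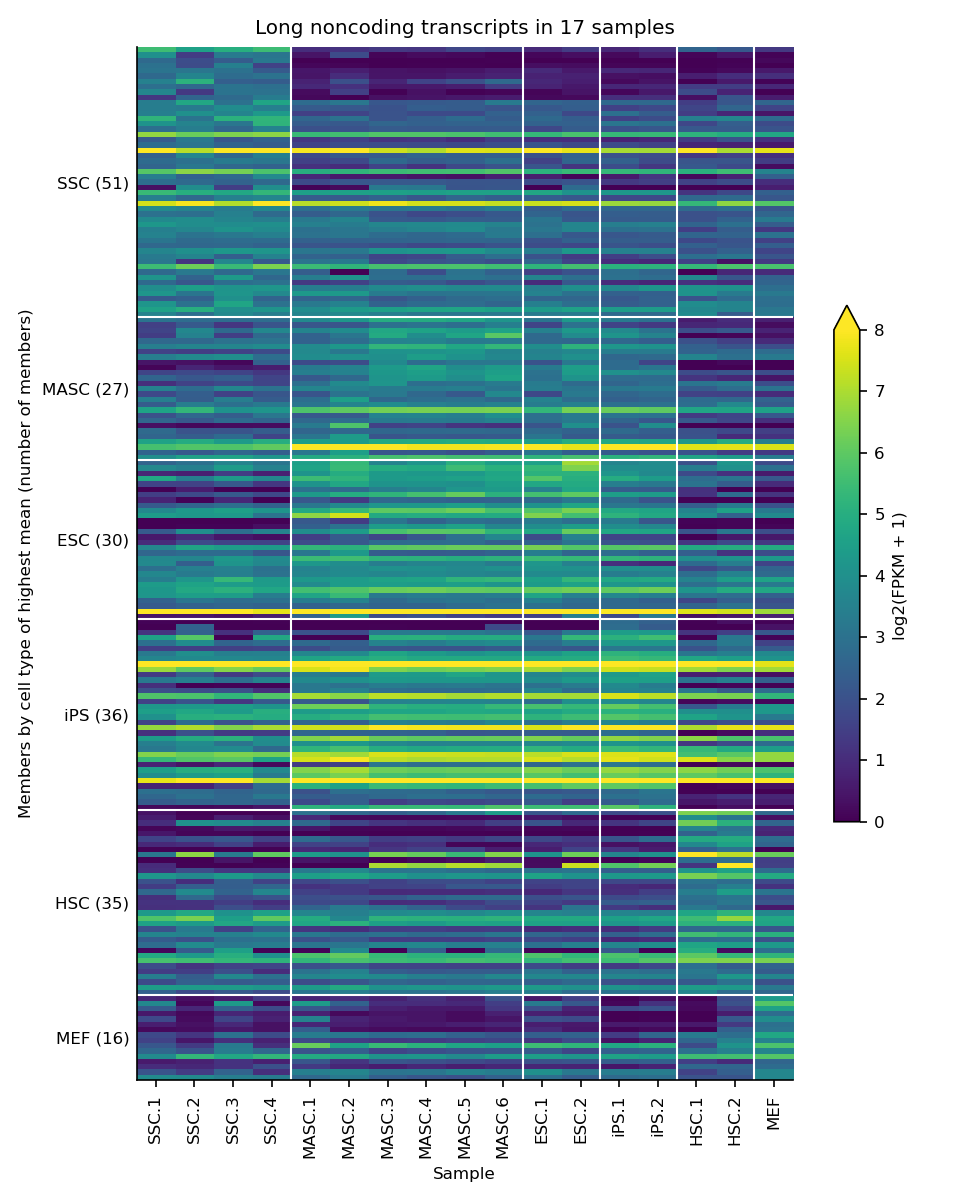
Level of the 195 members (rows) in the 17 samples (columns) as log2(FPKM + 1), with rows grouped by the cell type of the highest mean and, within it, by the lead over the next type. SSC held the highest mean of 51 members, iPS of 36, HSC of 35, ESC of 30, MASC of 27 and MEF of 16, and the MASC, ESC and iPS columns look alike.

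The members at the highest level were copies of abundant housekeeping genes and ribosomal RNA. Gm6793, in the Hnrnpa3 locus, had means of 339 FPKM in SSC, 755 in MASC, 894 in ESC, 1263 in iPS, 455 in HSC and 201 in MEF. Gm12070 (chr11:26685108-26687859), a pseudogene outside any coding locus, ranged from 120 to 320 FPKM in SSC lines and from 654 to 1219 in MASC lines. Rn45s, the ribosomal RNA precursor, spanned 118 to 1069 FPKM over the samples and 140 to 1069 within SSC lines alone. Without Rn45s, the members summed to 3197 to 3666 FPKM in SSC lines, 5649 to 6667 in MASC lines, 4218 to 4607 in HSC cultures and 3174 in MEF. The SSC sums thus lay below every MASC sum, and these sums include abundant copies such as Gm6793 and Gm12070.

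At 5 FPKM, 23 members were reached in SSC alone, 13 in HSC, 7 in MEF, 5 in iPS, 3 in ESC and 1 in MASC. The order was nearly that of the coding genes at the same floor, of which 665 were reached in SSC alone, 529 in HSC, 426 in MEF, 87 in iPS, 40 in MASC and 13 in ESC. Both rest on the values that chose the genes. The members with the largest lead in SSC were Chd3os, Speer7-ps1 and Fendrr. Chd3os (chr11:69154271-69156149, which lies 625 bases from the chromatin remodeller gene Chd3) was at 45.0, 22.7, 31.1 and 44.0 FPKM in SSC.1 to SSC.4, against 1.05 to 2.25 in MASC lines and 3.64 and 4.98 in HSC cultures. Chd3 itself was at 22.4 to 47.1 FPKM in SSC lines and 2.49 to 8.74 in MASC lines, yet 36.2 and 47.4 in HSC cultures, so that the pair differed there. Speer7-ps1, a copy of a testis-expressed gene family that overlaps Speer4c on the opposite strand, was at 15.3, 1.67, 8.57 and 7.64 FPKM in the SSC lines and at 0.0270 to 0.346 FPKM in 5 MASC lines, with MASC.2 at 2.52.

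Fendrr (chr8:123578782-123606932, minus strand), a lncRNA known for heart and body wall development, was at 5.60, 2.71, 4.00 and 8.15 FPKM in the 4 SSC lines. In the 13 other samples its highest value was 0.120 FPKM, in MEF. Its divergent neighbour Foxf1, 1353 bases away, was at 82.7, 21.1, 32.7 and 130.9 FPKM in the same SSC lines and at most 0.596 FPKM in MASC lines. Both genes were thus highest in SSC.4 and lowest in SSC.2. Since Fendrr reached the floor through SSC alone, its MASC minus SSC difference of -2.52 on the log2(FPKM + 1) scale is a description.

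The comparison of MASC with SSC lines asks which noncoding transcripts differed between spermatogonial cells and the pluripotent-type cells that arise from them. It was tested with limma over all 32661 transcripts in the 12 SSC, MASC and ESC lines, on log2(FPKM + 1), and a transcript was called at a difference of at least 1 on that scale and a Benjamini-Hochberg adjusted p under 0.05. Only the 170 members that reach 5 FPKM in ESC, iPS, HSC or MEF were tested, since the others were chosen on SSC or MASC values. Of these, 54 (31.8%) were higher in MASC and 8 (4.71%) were lower. Over all transcripts 6.04% were higher and 9.6% lower, and among protein-coding genes at the same floor 12% were higher and 13.5% lower. The median difference was 0.40 for the tested members and -0.04 for those coding genes. As ESC and iPS resemble MASC, the floor in them favours members that rise. Among the 120 members at 5 FPKM in HSC or MEF, 33 (27.5%) were higher and 6 (5%) lower, against 10.3% and 13.4% of the coding genes at that floor. Of the 25 members not tested, 1 had a positive difference, and their median was -1.29. By the methods of the study, SSC were kept in a medium with glial cell-derived neurotrophic factor. MASC, like ESC and iPS lines, were kept in ESC medium with leukaemia inhibitory factor. Medium therefore cannot be told apart from cell type in this comparison.

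By class, 27 of 87 tested lncRNA members were higher and 5 lower. Where no coding gene overlapped, 21 of 50 lncRNA members were higher and 3 lower, and of the 37 that overlapped one 6 were higher and 2 lower. Of 68 tested pseudogene members 26 were higher and none lower by limma. At an unadjusted p under 0.05 whatever the fold, 38 were higher and 7 lower, beside 79 and 23 of all 170 tested members. The share of all transcripts at that unadjusted threshold was not computed, so these counts are a description. Among the 15 members now coding or without an entry, 1 was higher and 3 were lower. The medians were 0.90, -0.01, 0.74 and 0.03 in these 4 classes.

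**Figure D2:**
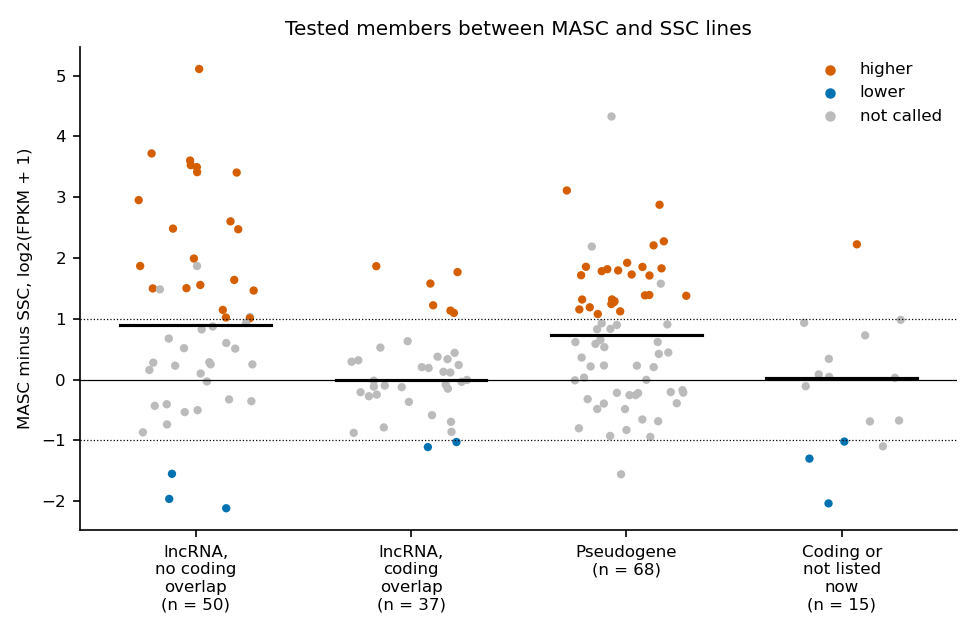
MASC minus SSC difference in log2(FPKM + 1) of the 170 tested members by class, with a black bar at each class median, dotted lines at 1 and -1, and colour for the limma call. Of the lncRNA members without coding overlap 21 of 50 were higher, while no pseudogene member was called lower.

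The member that separated the lines best was 2410007B07Rik (now Platr10, chr3:75451363-75459653, minus strand), a lncRNA of a group named for its link to pluripotency. It was at 0.131, 0.106, 0.157 and 0.341 FPKM in SSC.1 to SSC.4 and at 28.7 to 54.6 FPKM in MASC lines, with a median of 40.9. The ESC lines, at 43.6 and 46.0, and the iPS lines, at 60.5 and 34.7, lay in or near the MASC range, and no HSC culture or MEF passed 0.224 FPKM. The MASC minus SSC difference was 5.11 on the log2 scale (SE 0.145, limma adjusted p = 3.01e-08), and its promoter with the CACGTG letters is given above.

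Gm2373 (now Lncenc1, chr13:98252656-98267619), a lncRNA named for embryonic stem cells, was at 0.701, 0.749, 1.85 and 6.02 FPKM in the SSC lines and at 22.8 to 43.8 in MASC lines (median 38.0). SSC.4 was thus the highest SSC line, still below each MASC line, and the difference was 3.72 (SE 0.384, adjusted p = 7.42e-05 by limma). D630045M09Rik (now Eprn, chr13:73482113-73484832) was at 0, 0.0577, 0.0470 and 0.257 FPKM in SSC and 4.47 to 22.8 in MASC lines (median 14.6). Its lowest MASC values were those of MASC.1 and MASC.2, both of the Oct4-GFP label, and the difference was 3.60 (SE 0.407).

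D7Ertd143e, the microRNA host shown above, was at 0.0844, 0.783, 0.411 and 0.566 FPKM in SSC.1 to SSC.4 and at 8.62 to 25.3 FPKM in MASC lines (median 16.6). It was at 8.51 and 21.4 FPKM in ESC.1 and ESC.2, at 5.95 and 7.63 in iPS lines, and at most 0.0218 in HSC and MEF. The difference was 3.50 (SE 0.333, limma adjusted p = 4.58e-05). Its coding neighbour Nlrp12, 494 bases away, stayed under 1 FPKM in all 17 samples.

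Gm5860 (difference 3.53), Gm17644 (3.41) and Gm20362 (3.41), all called higher, are lncRNAs without a coding overlap. Their SSC values reached at most 1.75, 3.80 and 0.535 FPKM, and their MASC values began at 16.6, 19.5 and 5.80 FPKM. AI662270 (2.95), also called, was at most 0.316 FPKM in SSC and 4.51 to 20.4 in MASC lines. It was far higher in HSC cultures, at 84.4 and 75.5 FPKM.

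Among pseudogenes, Gm5424 (chr10:61533770-61535319) rose from 3.52, 1.59, 8.56 and 1.10 FPKM in the SSC lines to 21.7 to 68.9 FPKM in MASC lines, by 3.11 (SE 0.456). It was also at 52.8 FPKM in MEF and 16.1 in HSC.2, against 2.55 in HSC.1. Gm5712 (now Pou5f1-rs4, chr3:129136591-129137630) is a copy of Pou5f1, the gene of the pluripotency factor Oct4. It was at 1.12, 0.0211, 0.0465 and 0.0564 FPKM in SSC.1 to SSC.4 and 7.05 to 9.17 in MASC lines, a difference of 2.88 (SE 0.203). Pou5f1 was at 94.5, 2.10, 1.37 and 5.42 FPKM in the same SSC lines and 693 to 1007 in MASC lines, so SSC.1 was the highest SSC line for both. How far reads of Pou5f1 were counted in its copy was not tested. The summed level of 8 pluripotency markers was 164 FPKM in SSC.1 and 27.1 at the lowest of the SSC lines, and its part in the SSC.1 values was not tested.

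**Figure D3:**
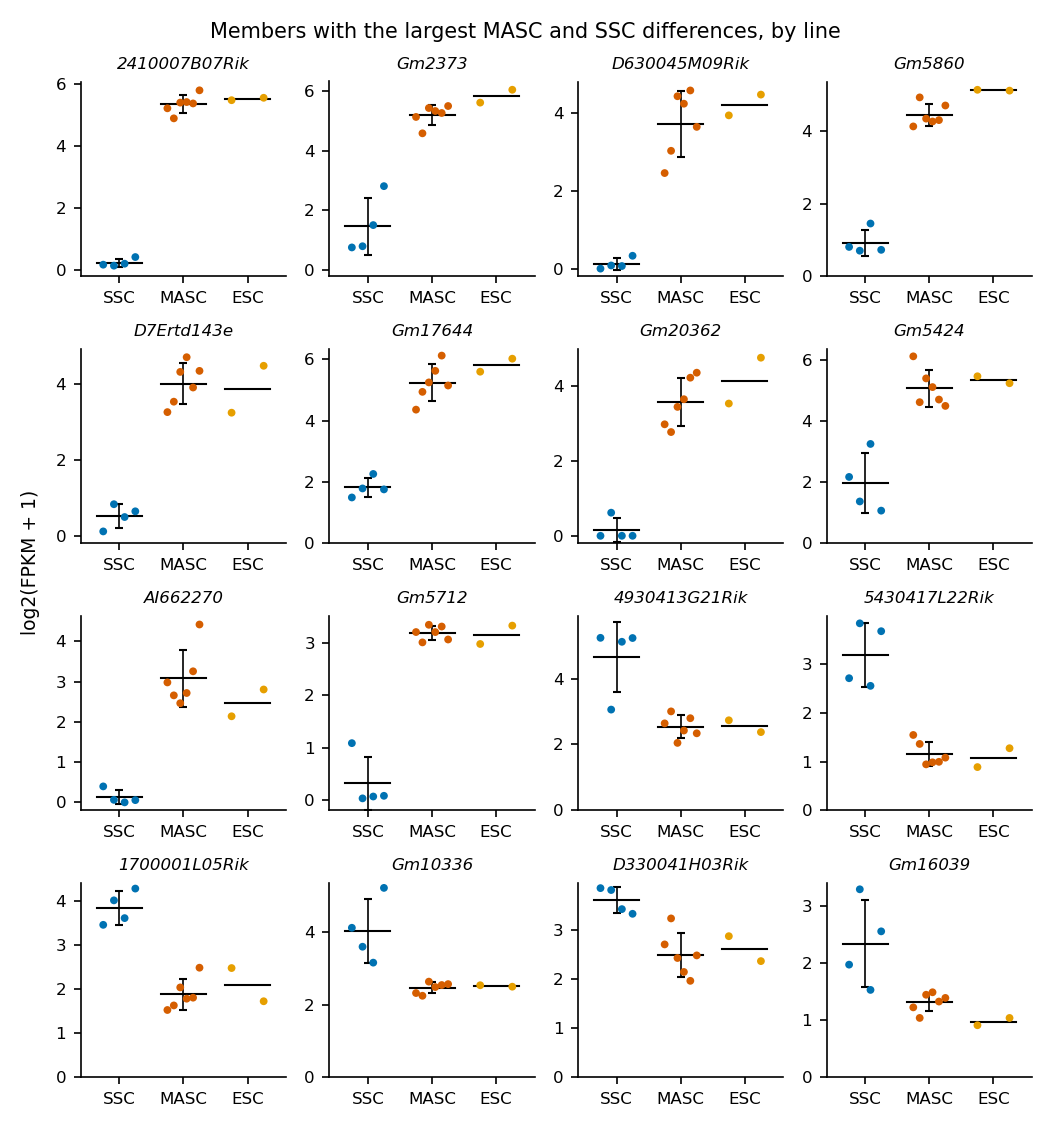
Level in log2(FPKM + 1) of the 10 members with the largest rise and the 6 with a fall among those called without overlap, in 4 SSC, 6 MASC and 2 ESC lines (points), with the mean as a bar and the SD as an error bar for SSC and MASC. SSC.3 of Gm5860, SSC.2 of Gm20362 and SSC.2 of 4930413G21Rik stand apart from the other SSC lines.

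Of the 170 tested members, 8 fell in MASC lines, and 6 of the 8 did so without overlap of the lines. Of the 54 that rose, 50 did so without overlap. The share without overlap over all transcripts was not counted, so these counts are a description. Without SSC.4, 5 were called lower. Members that reached 5 FPKM through SSC or MASC alone were not tested, and the median difference of these 25 was -1.29. 4930413G21Rik (chr7:130112572-130113973), which ends 104 bases from the gene of the p53-binding protein Rbbp6, was at 36.7, 7.33, 33.7 and 36.5 FPKM in SSC.1 to SSC.4 and 3.14 to 7.02 in MASC lines. SSC.2 was thus close to the MASC lines, and the difference was -2.12 (SE 0.422, limma adjusted p = 0.00387). With strain as a block, or without the 5 libraries with most fibroblast marker RNA, it was not called. Rbbp6 was also lowest in SSC.2 among the SSC lines, at 26.6 FPKM against 48.8 to 49.6, and differed by -0.91. Gm10336 lies 51 bases from Mtr, the gene of methionine synthase. It was at 16.2, 11.02, 7.88 and 35.8 FPKM in SSC lines and 3.73 to 5.19 in MASC lines, a difference of -1.55 (SE 0.328), and Mtr differed by -2.41 (adjusted p = 0.000286 by limma).

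1700001L05Rik (chr15:83184277-83197727) was at 10.0, 15.2, 11.3 and 18.5 FPKM in SSC and at 1.89 to 4.62 in MASC lines, a difference of -1.96 (SE 0.239). D330041H03Rik, antisense to the lipid transporter gene Abca3, differed by -1.11 and Abca3 by -1.71. The other members without overlap were 5430417L22Rik (now the coding gene Inafm2, -2.04) and Gm16039 (now the coding gene Umad1, -1.02). The call of Gm16039 was lost without SSC.2, SSC.4 or MASC.2. LOC106740 (-1.30) and 1700007J10Rik (-1.03) were called with lines that overlapped.

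Where a called member overlapped a coding gene, the values of both are given side by side. Of 17 members that rose and overlapped one, 10 had a partner called higher, 4 had one called lower and 3 had neither. Of 3 members that fell and overlapped one, 1 had a partner called lower and 2 had neither. The shares of all coding genes at the same floor that were called, 12% higher and 13.5% lower, stand above. E230016M11Rik rose by 1.58 over Gadd45a, a stress response gene that rose by 2.14, and Nphs1os by 1.87 beside Nphs1, the nephrin gene, with 2.03. Gm6981 rose by 1.78 across Rdx, the radixin gene, with 1.75. In contrast, 2810025M15Rik rose by 1.22 while Rasal2 on the other strand fell by 1.55, Gm5069 rose by 1.71 while Itpkb fell by 1.69, and Gm6498 rose by 1.73 within Peli2, which fell by 1.94. With strand unknown, the shared directions cannot be told apart from shared reads.

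The known lncRNAs were taken from a list of 52 names, and 19 members carried one of them in the files or in RefSeq. Of the 18 tested, 6 were called higher in MASC than in SSC lines by limma and none lower, beside 31.8% and 4.71% of all tested members. 1700020I14Rik and 1810032O08Rik were past an adjusted p of 0.05 at less than the fold. The 3 transcripts of 1810032O08Rik summed to 30.3, 10.3, 30.2 and 13.0 FPKM in SSC.1 to SSC.4. In MASC lines they summed to 28.7 to 36.5 FPKM, so the groups overlapped in the sum. Gm2373 (now Lncenc1) is described above. Gas5, a growth arrest transcript whose introns hold many snoRNAs, was at 11.9, 24.4, 20.4 and 19.7 FPKM in SSC lines and 34.1 to 70.5 in MASC lines (median 62.9). It rose by 1.4995 (SE 0.271, limma adjusted p = 0.00222), and MASC.1 and MASC.2 were the lowest MASC lines. Dancr, known for holding back differentiation, was at 2.13, 2.41, 2.05 and 1.45 FPKM in SSC and 9.92 to 21.4 in MASC lines (median 17.2), a rise of 2.47 (SE 0.308, adjusted p = 0.000242). Snhg5, at 15.9 to 38.4 FPKM in SSC and 52.9 to 82.7 in MASC lines, rose by 1.64. Snhg4 rose by 1.15, a call that was lost without any of SSC.1, SSC.2, SSC.3 and MASC.3 to MASC.6, at differences of 1.04 to 1.15.

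Of 6 members that hold an annotated snoRNA, Gas5, Dancr and Snhg4 were called higher, and Snhg18 (-0.74), 1810032O08Rik (0.60) and 2700038G22Rik (0.87) were not. Of 7 tested microRNA hosts, D7Ertd143e and Snhg4 were called higher. Among all tested members the share called higher was 31.8%, so 2 of 7 hosts is near it, and 3 of 6 is a small count. Mir17hg, the host of a growth-promoting microRNA cluster, was at 2.09 to 4.93 FPKM in SSC lines. It was at 3.72 and 5.46 in MASC.1 and MASC.2 and at 14.3 to 24.1 in the other MASC lines, so the groups overlapped (difference 1.48, SE 0.507, limma adjusted p = 0.0512). Mir22hg differed by 0.82 (adjusted p = 0.0919, limma).

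Pvt1, a neighbour of Myc, rose by 1.02 from at most 1.27 FPKM in SSC lines, just past the threshold of 1, and fell below it without any of SSC.1, SSC.2, SSC.4, MASC.1, MASC.3 and MASC.4. It reached the floor only through MEF, at 5.05 FPKM, and was among the members nearest to it, with 4933416M07Rik at 5.05 in iPS and 9330151L19Rik at 5.06 in SSC. Just outside the floor were Foxd2os at 4.97 FPKM in HSC, 4930444M15Rik at 4.92 in MASC and Thap6 at 4.77 in ESC. The 10 other members of the list that were tested were not called. Of these, D7Ertd715e (now Snhg14) was at 1.76, 10.7, 1.83 and 5.78 FPKM in SSC lines and 4.74 to 60.5 in MASC lines, so the groups overlapped (difference 1.87, SE 0.709, limma adjusted p = 0.0750). The differences were 0.60 for 1810032O08Rik (now Snhg16), 0.29 for 9430008C03Rik (now Snhg17), 0.51 for Tug1, 0.67 for Neat1, -0.74 for Snhg18, -0.10 for Peg13, -0.43 for Malat1, -0.50 for 1700020I14Rik (now Oip5os1) and -0.33 for 2900097C17Rik (now Norad). Norad, which binds Pumilio proteins, lay between 33.2 and 85.6 FPKM in all 17 samples.

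**Figure D4:**
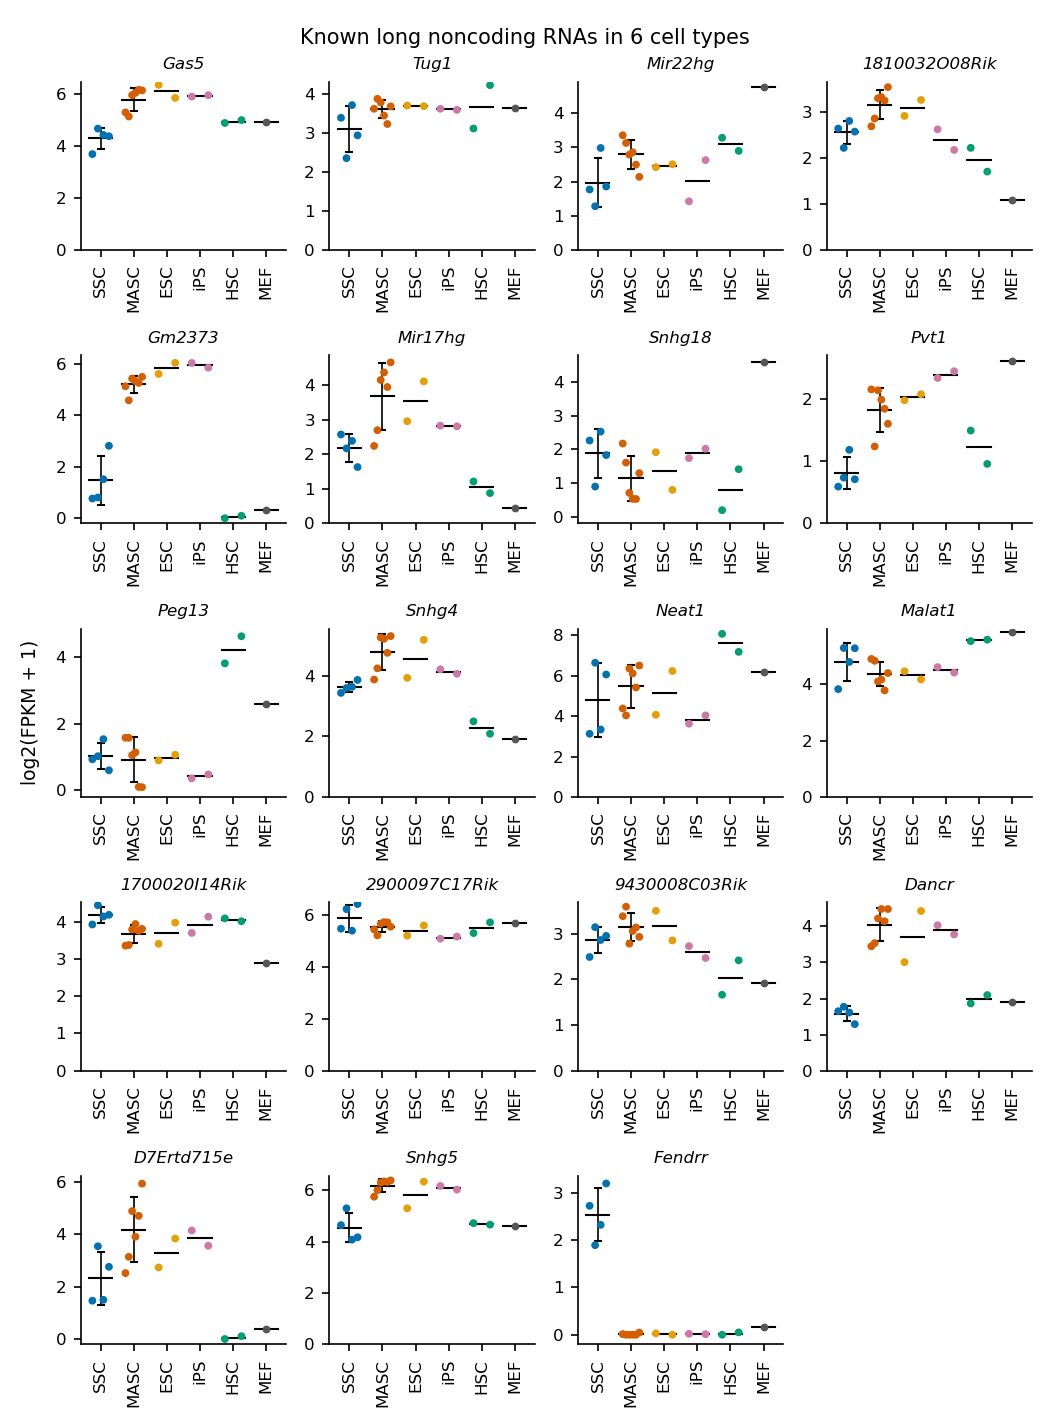
Level in log2(FPKM + 1) of the 19 members on the list of known long noncoding RNAs, under their symbols in the files, in 6 cell types, with a point per sample, a bar at the mean and an SD error bar where a type has over 2 samples. Dancr, Gas5 and Snhg5 were higher in every MASC line than in every SSC line, Peg13 and Neat1 had their highest values in HSC cultures, and Fendrr was near 0 outside SSC.

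The comparison of ESC with MASC lines asks how close the converted cells came to embryonic stem cells. None of 186 tested members was called in limma, with 3 higher and 3 lower at an unadjusted p under 0.05. Over all transcripts 0.0153% were called higher and 0.00306% lower, and at an unadjusted p under 0.05 the shares were 1.65% and 1.27%. The median difference of the members was -0.03. With 2 ESC lines, a missed threshold does not show equal levels. Members with their largest lead in ESC lines, 4930470H14Rik at 23.0 and 118 FPKM and Olfr856-ps1 at 39.2 and 86.9 FPKM in ESC.1 and ESC.2, owed it to ESC.2. The third, Gm5860, was at 34.5 and 34.0 FPKM in the ESC lines, both above the MASC range of 16.6 to 29.7, with a difference of 0.68 (SE 0.243, limma adjusted p = 1).

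MASC lines had the highest mean of 27 members, and 0 members led there by at least 1 on the log2 scale. The 3 with the largest lead were 1700030C10Rik, described with the HSC cultures, D930048N14Rik and Znf41-ps. D930048N14Rik, which overlaps N4bp3 on the opposite strand, was at 3.38 and 3.28 FPKM in MASC.1 and MASC.2, 6.42 to 9.89 in the other MASC lines, 1.43 to 3.76 in SSC lines and 2.15 and 7.06 in ESC lines. It was not tested, since MASC alone brought it to the floor. Znf41-ps, a zinc finger gene copy, was at 2.11, 11.98, 5.67 and 11.99 FPKM in SSC.1 to SSC.4 and 11.2 to 26.5 in MASC lines. It was called higher, by 1.39 (SE 0.435, limma adjusted p = 0.0356), although the lines overlapped.

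In iPS lines, 6 members led by at least 1 on the log2 scale. 2310034O05Rik was at 5.91 and 4.59 FPKM in the iPS lines and at most 0.255 in the other 15 samples. Gm14403, of a family of zinc finger gene copies, was at 20.7 and 19.04 FPKM in iPS lines and 1.23 to 8.75 elsewhere. Gm5512, placed in the Rmnd1 locus, was at 6.23 and 4.07 FPKM in iPS lines, at 4.83 in SSC.2 and 2.54 in MASC.6, and at most 0.315 FPKM in the remaining samples, so its values did not follow cell type.

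HSC cultures were compared with the mean of the ESC, iPS and MASC lines in a fit over all 17 samples, to set somatic stem cells against the pluripotent type. Both HSC cultures carried a strain label that no ESC, iPS or MASC line carried. They were also grown on human endothelial feeders in serum-free medium, and the ESC, iPS and MASC lines with MEF in ESC medium. Strain, feeder and medium therefore cannot be told apart from cell type in this comparison. The HSC cultures may also be technical repeats. Tested were the 143 members at 5 FPKM in SSC or MEF. Of these 17 (11.9%) were higher in HSC and 33 (23.1%) lower. Over all transcripts the shares were 10.3% and 11.2%, and among coding genes at the same floor 15.9% and 21.4%. The share of lower calls was thus near that of coding genes. The median was -0.30 for members and -0.23 for those genes. Without the 10 pseudogene members placed in a coding locus, 17 were higher and 29 lower in HSC, and 51 were higher and 8 lower in MASC than in SSC lines.

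The largest rises were in class I MHC copies and AI662270. H2-Q5 was at 75.9 and 33.3 FPKM in HSC.1 and HSC.2, at 0.912 to 5.80 in the pluripotent lines and at 15.2 FPKM at most in SSC, a difference of 4.18 (SE 0.715, limma adjusted p = 0.000694). H2-K2 was at 28.9 and 29.3 FPKM in HSC and 1.53 to 6.05 in the pluripotent lines (difference 2.96, SE 0.345). Both are near-identical to other class I genes, among which reads can be split. AI662270 (chr11:83037078-83040086), 8421 bases from the Schlafen family gene Slfn3, rose by 3.85 (SE 0.395), and Slfn3 was at 5.26 and 4.98 FPKM in HSC and at most 1.70 elsewhere.

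Neat1, the scaffold of nuclear paraspeckles, was at 268 and 144 FPKM in HSC cultures and 11.3 to 89.6 in the pluripotent lines, a rise of 2.81 (SE 0.995, limma adjusted p = 0.0481). The call was lost when any single MASC, iPS or HSC sample or ESC.1 was left out. Its neighbour Malat1, a nuclear speckle RNA, rose by 1.16. Gm16897, on the strand opposite to the stem cell marker gene Cd34, was at 14.2 and 7.62 FPKM in HSC and at most 0.900 elsewhere, and Cd34 was at 158.9 and 72.8 FPKM there. Peg13, an imprinted RNA in Trappc9, was at 13.0 and 23.7 FPKM in HSC and 4.99 in MEF, against 1.99 at most in the other 14 samples. Neither Gm16897 nor Peg13 was tested, since HSC alone brought them to the floor.

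Among members lower in HSC, D7Ertd715e (now Snhg14, the snoRNA host next to Snurf) was at 0 and 0.0774 FPKM in HSC and 4.74 to 60.5 in the pluripotent lines, and fell by 3.73 (SE 0.797). 1700030C10Rik fell by 2.96, from 6.83 to 30.3 FPKM in pluripotent lines to 0.514 and 1.03 in HSC. 5430405H02Rik, antisense to the TGF-beta repressor gene Tgif2, was at 1.30 and 2.29 FPKM in HSC against 15.9 to 26.7 in pluripotent lines (-2.94, SE 0.184), and Tgif2 fell by 3.13. Snhg4 fell by 2.20 and Snhg5 by 1.34. Of 12 members that fell and overlapped a coding gene, 8 had a partner that also fell, 4 had a partner that did not, and none had one that rose. Among coding genes at the same floor, 21.4% were called lower and 15.9% higher. With strand unknown, a shared direction cannot be told apart from shared reads here either.

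MEF was a single sample and has no replicate check. Its members at the highest level included Gm6548 (chr17:79249845-79251884), a pseudogene outside any coding locus, at 208 FPKM, against 90.7 to 135 in SSC lines and 169 to 254 in MASC lines. Its leading members were Serpina3h at 56.9 FPKM, Snhg18 at 22.8 and 2610203C20Rik (now Mir100hg, the host of miR-125b) at 18.9. The fibroblast markers summed to 6947 FPKM in MEF, to 363 and 872 in SSC.1 and SSC.3, 1008 in MASC.1, 389 in ESC.1, 455 in HSC.2 and 2.36 to 137 in the other 11 samples. Serpina3h was at 12.2 and 19.6 FPKM in SSC.1 and SSC.3, 20.7 in MASC.1 and 8.76 in ESC.1, and its highest value in the other 12 samples was 4.70. The part of fibroblast RNA in these values was not tested, and in bulk RNA more cells of a type cannot be told apart from more RNA per cell. With those 5 libraries left out, 49 members were higher and 7 lower in MASC than in SSC lines, and 15 were higher and 32 lower in HSC.

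Strain labels recurred in SSC, MASC and ESC lines, and the Oct4-GFP lines were compared with the 129mix lines with cell type in the fit. None of the 195 members was called in limma, with 33 higher and 40 lower at an unadjusted p under 0.05 and a smallest adjusted p of 0.0685. Over all transcripts 0.00919% were called higher and 0.0153% lower, and 6.87% and 7.99% had an unadjusted p under 0.05. Without SSC.2, 3 members were called higher and 10 lower, against 0.594% and 0.762% of all transcripts. Among the 10 were D7Ertd143e (-1.001), Snhg4 (-1.01) and Neat1 (-2.29). Neat1 was at 98.7 FPKM in SSC.2 and 7.74 in SSC.1, both Oct4-GFP, and at 9.13 and 65.6 in SSC.3 and SSC.4. In the pluripotent lines it was at 15.4 to 19.8 FPKM in the 3 Oct4-GFP lines and 41.7 to 89.6 in the other MASC lines and ESC.2, yet at 11.3 and 15.4 in iPS lines of the 129mix label. Neat1 therefore did not follow the strain label in all cell types.

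Dancr, Mir17hg, Snhg4 and D7Ertd715e were likewise lower in MASC.1, MASC.2 and ESC.1 than in MASC.3 to MASC.6 and ESC.2. Snhg4 was at 13.7, 17.9 and 14.2 FPKM in the former and 26.0 to 38.6 in the latter. These members were chosen after their values were seen, and whether the strain or another property shared by those lines moved with them was not tested. Atp6v0c-ps2, placed in the locus of the proton pump gene Atp6v0c, was near 0 in some lines and high in others. It was at 0.961, 0.0401, 0.000800 and 0.0545 FPKM in SSC.1 to SSC.4, thus at most 0.961 FPKM under each label. It was at 0.00240 and 0.00360 FPKM in MASC.1 and MASC.2 and 103 to 137 in the other 4 MASC lines, at 0.204 and 164 FPKM in the ESC lines, and at 1.33 and 302 FPKM in the HSC cultures, which share the C57Bl/6J label. In the 4 Oct4-GFP and 129mix MASC lines alone it differed by -6.84 (limma adjusted p = 0.0344), in a fit that called 0.15% of all transcripts higher and 0.245% lower. Gt(ROSA)26Sor is the locus of the lacZ insertion in MASC.5 and MASC.6. Its member transcript was called lower in Oct4-GFP than in 129mix lines without SSC.2 (-3.14, limma adjusted p = 0.00339). In the 4 Oct4-GFP and 129mix MASC lines alone it was also called (-3.08, limma adjusted p = 0.0344). How reads were split among its 3 transcripts was not tested, so their sum is given too. The sum was 16.02 and 15.5 FPKM in MASC.5 and MASC.6, 10.5 to 22.3 over all MASC lines and 18.6 to 35.3 in SSC lines.

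**Figure D5:**
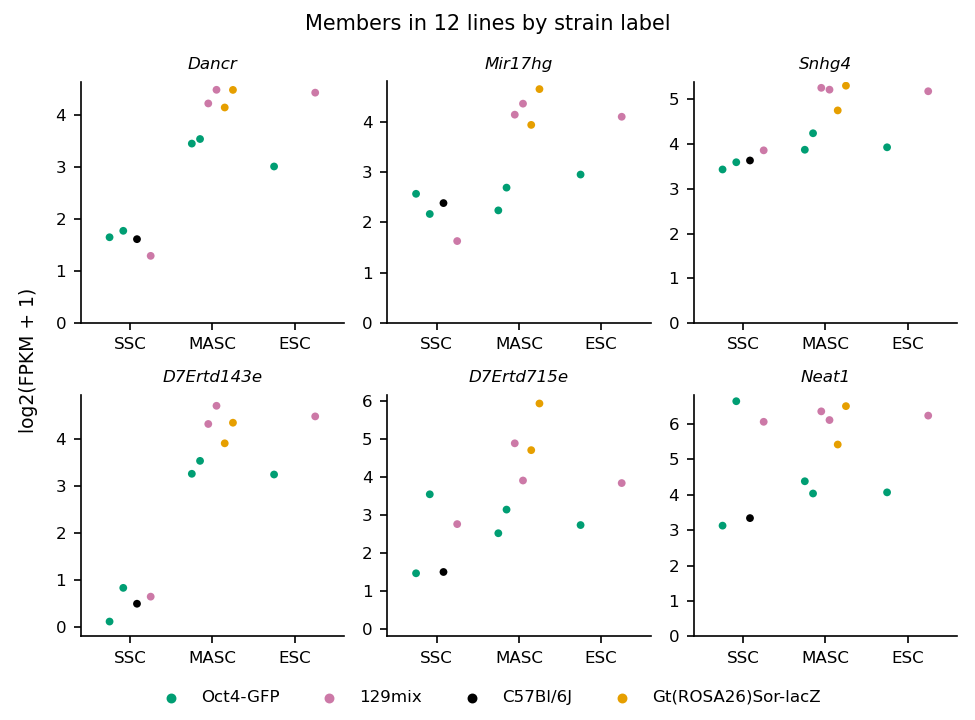
Level in log2(FPKM + 1) of 6 members in the 12 SSC, MASC and ESC lines, a point per line coloured by strain label. In MASC and ESC the Oct4-GFP lines lie below the others for Dancr, Mir17hg, Snhg4, D7Ertd143e, D7Ertd715e and Neat1, while in SSC that holds for Snhg4 alone.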

How the data were processed

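RNA-seq tables of 17 samples were used, 1 file each. According to the deposited files and the methods of the study, the authors aligned reads to mm9 with TopHat2 2.0.11, discarded duplicates and multiply mapping reads, and computed FPKM per RefSeq transcript with Cufflinks (upper-quartile and GC-normalization). Discarding multiply mapping reads lowers the values of near-identical copies. Confidence bounds in FPKM and the coverage, a signal in reads per base, were deposited beside each FPKM. No counts are given, and none were inferred.

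Of 33262 rows, 601 further loci of a transcript were left out and 32661 analysed. limma 3.58.1 (R 4.3.3, lmFit and eBayes) was run on log2(FPKM + 1), and p-values were adjusted over all transcripts by Benjamini and Hochberg. On simulated data, 84.5% of changes of 2 (log2) between MASC and SSC lines were recovered. Lines of a group are separate lines by their labels, and HSC cultures may be technical repeats. RefSeq classes, names, promoters and microRNAs are of GRCm38.p6, and file coordinates (mm9) are printed 1-based. The members and gene lists were chosen with earlier results of these data known.

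Named were the 10 members in each direction with the largest called difference without overlap (MASC and SSC), the 3 highest and 3 leading members per cell type, all members on the list of known lncRNAs, the 3 largest calls in the other comparisons, and the 3 members on either side of the floor. Members named outside this rule were chosen after their values were seen. Python 3.11.15, pandas 2.3.3 and matplotlib 3.10.9 were used.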

Additional observations from a re-analysis of the deposited data

Results flagged for a closer look

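For the 55 named members, each group of 4 SSC and of 6 MASC lines was checked for a line far from the others with Dixon's criterion, and 13 of 110 groups had one. Chance flags about 1 in 20 groups.

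Among SSC lines, Gm5860 was at 1.75 FPKM in SSC.3 against 0.635 to 0.758 in the others, and Gm20362 at 0.535 FPKM in SSC.2 against 0.0025 at most. Gm5712 was at 1.12 FPKM in SSC.1 against 0.0564 at most, and AI662270 at 0.316 FPKM there against 0.0439 at most. 1700030C10Rik was at 7.33 FPKM in SSC.1 against 6.20 to 6.28. 4930413G21Rik was at 7.33 FPKM in SSC.2 against 33.7 to 36.7. Gm5512 was at 4.83 FPKM in SSC.2 against 0.0008 at most.

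Among MASC lines, Gm5512 was at 2.54 FPKM in MASC.6 against 0.0287 at most, and 2610203C20Rik at 2.91 FPKM in MASC.6 against 0.670 to 1.15. Gm16897 was at 0.900 FPKM in MASC.1 against 0.127 to 0.177, and Speer7-ps1 at 2.52 FPKM in MASC.2 against 0.346 at most. Fendrr, at 0.0328 FPKM in MASC.6, and 2310034O05Rik, at 0.0120 FPKM in MASC.2, are values near 0.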

How the results depend on the processing

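The count of members higher in MASC than in SSC lines was 54 and that of members lower was 8. With a log2 difference of at least 2 they were 16 and 2. A floor of 2 FPKM gave 18 lower and a floor of 10 FPKM gave 3. Members that overlap no coding transcript gave 5 lower, members listed as lncRNA 27 higher and 5 lower, and members at 5 FPKM in HSC or MEF 33 higher. With the replicate block the counts were 44 and 2, and 5430417L22Rik and 1700001L05Rik were those still called lower. In HSC against the pluripotent lines (17 higher, 33 lower), a log2 difference of at least 2 gave 6 and 10, a floor of 2 FPKM 32 higher, a floor of 10 FPKM 10 higher, members without coding overlap 21 lower, and members listed as lncRNA 7 and 14. Between strain labels (0 and 0), the 4 Oct4-GFP and 129mix MASC lines alone gave 4 lower. Most of these settings change which members are tested or how large a difference is asked for. For the replicate block and the MASC lines alone the cause was not tested.

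Leaving out 1 sample at a time gave 46 to 55 members higher and 5 to 9 lower in MASC (5 without SSC.4), 13 to 18 higher and 24 to 35 lower in HSC, and 0 to 3 higher and 0 to 10 lower in Oct4-GFP lines (3 and 10 without SSC.2, 1 and 2 without SSC.4). Where 1 HSC culture or ESC line was left, it was assumed to vary like the other groups. In ESC against MASC lines no setting gave a call.

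Peg13, at -0.10 between MASC and SSC lines, was at 0.10 with quantile normalization, 0.53 with a strain block and 0.31 with the replicate block, and from -0.24 to 0.072 with 1 line left out, above 0 without SSC.3, MASC.5 or MASC.6. Neat1, at 0.67, was at -0.36 with a strain block and -0.67 without the 5 libraries with most fibroblast marker RNA. None of these values was called, and the cause was not tested. The choice of those 5 libraries, of the lncRNA class, of members in HSC or MEF and of the 10 misplaced members was made after seeing the data.

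Same-numbered SSC and MASC lines did not deviate in a common direction. Their deviations from the group means correlated at 0.185, -0.225, -0.219 and 0.135 for numbers 1 to 4. With ESC lines included, same-numbered lines correlated between -0.36 and 0.41 over 8 pairs (mean 0.05). Those of other numbers correlated between -0.41 and 0.40 over 36 pairs. With 2 ESC lines, each ESC correlation recurs with its sign reversed, and the extremes came from ESC pairs, so these ranges cannot show whether numbers pair.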
